A study of Mus musculus with 12 samples.

Results

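In untreated RAW264.7 cells, 291 of the 8839 MAX peaks (3.29%) overlapped a MYC peak by at least 1 bp, and these 291 sites are described here beside MAX sites of near-equal rank that had no listed MYC peak. They held 297 of the 312 MYC peaks, and the remaining 15 MYC peaks lay outside every MAX peak. Each MAX peak with MYC was paired with the nearest-ranked MAX peak without MYC, where rank is the order of the authors' score in the MAX list, highest first. The 291 pairs differed by a median of 1 rank and by at most 26, and both classes had a median score of 387, against 135 over all 8548 MAX peaks without MYC.

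MYC and MAX binding was mapped by chromatin immunoprecipitation and sequencing in RAW264.7, a macrophage-like mouse line that forms osteoclasts when given the cytokine RANKL. Each antibody has 1 deposited peak list for each of 4 conditions, which were no treatment, RANKL at 50 ng/ml for 4 h, the BET bromodomain inhibitor I-BET at 500 nM for 4 h, and both agents for 4 h. All sites below were defined in the untreated lists, and the lists of treated cells served only to ask whether the same places were listed again. Since 1 list stands for each condition and reads per peak were not used here, no p-value is given, and the 95% intervals are exact and cover counting error over peaks only.

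MYC binds DNA chiefly as a pair with MAX, and the pair recognises the E-box, of which CACGTG is the canonical form. MAX also pairs with itself and with the MXD, MNT and MGA proteins, most of which repress genes, so a MAX peak can hold pairs without MYC. MYC-bound promoters in many cell types include genes for ribosome production, protein synthesis and metabolism. The MYC and MAX lists carry different tags in their names that the labels do not explain, so the lack of a listed MYC peak does not show that MYC was absent.

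Promoter windows are printed from both classes because the E-box letters did not divide them cleanly. Each window is a RefSeq sequence (GRCm38.p6) running 5′ to 3′ on the strand of its gene, from 250 bases before the gene start to 50 after it, with CACGTG in capitals. The first 3 windows belong to the best-ranked MAX peaks with MYC that cover a window, the next 3 to the best-ranked without MYC, then follow the best-ranked ribosomal protein gene with MYC and the best-ranked MYC peak outside MAX.
Nsun2: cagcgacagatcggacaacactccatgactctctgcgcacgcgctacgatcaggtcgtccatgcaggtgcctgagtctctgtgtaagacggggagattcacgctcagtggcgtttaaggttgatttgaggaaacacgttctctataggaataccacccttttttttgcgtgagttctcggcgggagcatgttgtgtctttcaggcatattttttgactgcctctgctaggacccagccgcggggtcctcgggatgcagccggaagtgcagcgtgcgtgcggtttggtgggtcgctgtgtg
Ptprs: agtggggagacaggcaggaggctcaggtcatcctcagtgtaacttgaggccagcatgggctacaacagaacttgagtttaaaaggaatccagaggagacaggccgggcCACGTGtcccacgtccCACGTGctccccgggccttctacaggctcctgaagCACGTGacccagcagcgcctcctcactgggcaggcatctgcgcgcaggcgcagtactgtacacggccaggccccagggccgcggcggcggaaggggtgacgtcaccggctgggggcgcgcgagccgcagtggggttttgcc
Apex1: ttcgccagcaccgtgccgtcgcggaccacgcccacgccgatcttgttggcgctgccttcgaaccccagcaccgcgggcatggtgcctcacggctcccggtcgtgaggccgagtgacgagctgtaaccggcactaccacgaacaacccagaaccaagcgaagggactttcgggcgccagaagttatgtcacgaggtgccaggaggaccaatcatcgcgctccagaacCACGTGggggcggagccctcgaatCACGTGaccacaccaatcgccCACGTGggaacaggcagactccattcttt
Slc35b1: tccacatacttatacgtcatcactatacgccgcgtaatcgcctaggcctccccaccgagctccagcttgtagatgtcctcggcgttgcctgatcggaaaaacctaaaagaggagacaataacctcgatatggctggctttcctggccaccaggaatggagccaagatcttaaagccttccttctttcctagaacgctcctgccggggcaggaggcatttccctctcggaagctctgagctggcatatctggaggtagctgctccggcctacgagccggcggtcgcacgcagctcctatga
Mapkapk5: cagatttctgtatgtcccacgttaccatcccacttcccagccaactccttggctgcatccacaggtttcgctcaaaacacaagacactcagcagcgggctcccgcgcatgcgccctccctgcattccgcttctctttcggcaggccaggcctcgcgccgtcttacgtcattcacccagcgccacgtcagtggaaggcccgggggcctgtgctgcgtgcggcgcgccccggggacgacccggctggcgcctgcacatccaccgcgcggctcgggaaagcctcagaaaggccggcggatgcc
Suclg1: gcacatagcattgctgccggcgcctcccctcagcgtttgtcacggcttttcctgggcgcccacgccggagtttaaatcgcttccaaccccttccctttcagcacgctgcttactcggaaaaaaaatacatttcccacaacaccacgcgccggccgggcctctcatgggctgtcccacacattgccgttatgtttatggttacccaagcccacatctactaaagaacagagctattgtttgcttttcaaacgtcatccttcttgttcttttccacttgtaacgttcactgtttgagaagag
Rpl10a: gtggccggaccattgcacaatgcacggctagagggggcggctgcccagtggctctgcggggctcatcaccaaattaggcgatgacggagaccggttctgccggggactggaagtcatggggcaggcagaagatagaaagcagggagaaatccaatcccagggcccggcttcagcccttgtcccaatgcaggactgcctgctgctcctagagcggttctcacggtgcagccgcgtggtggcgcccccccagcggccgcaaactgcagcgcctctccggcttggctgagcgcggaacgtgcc
Nudt13: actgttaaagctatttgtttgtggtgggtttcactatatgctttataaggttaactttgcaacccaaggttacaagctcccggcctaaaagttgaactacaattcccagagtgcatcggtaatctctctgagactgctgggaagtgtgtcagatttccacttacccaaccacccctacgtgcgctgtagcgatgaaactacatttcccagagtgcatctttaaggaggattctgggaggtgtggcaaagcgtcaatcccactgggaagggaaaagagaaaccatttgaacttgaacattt
The Nsun2 window (chr13:69611766-69612065, plus strand), of an RNA cytosine methyltransferase gene, held no CACGTG although its MAX peak ranked 11 and overlapped the MYC peak of rank 190. The Ptprs window (chr17:56476431-56476730, minus strand), of a receptor tyrosine phosphatase gene, held 3 CACGTG strings under the MAX peak of rank 28. The Apex1 window (chr14:50924699-50924998, plus strand), of a DNA repair endonuclease gene, also held 3, under the MAX peak of rank 30. None stood in the windows of Slc35b1 (chr11:95384606-95384905, plus strand), Mapkapk5 (chr5:121545843-121546142, minus strand) and Suclg1 (chr6:73248255-73248554, plus strand), whose MAX peaks ranked 2, 3 and 4 and had no MYC peak. The windows of Rpl10a (chr17:28328221-28328520, plus strand) and Nudt13 (chr14:20294440-20294739, plus strand) held none either.

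Over all members with such a window, CACGTG was a little more frequent at sites with MYC, and the intervals overlapped. A window counted for a peak when they shared at least 1 bp, so the string may lie outside the peak. CACGTG was present in at least 1 window of 55 of 157 MAX peaks with MYC (35.0%, 95% interval 27.6 to 43.0%). The same held for 44 of 156 rank-matched peaks without MYC (28.2%, 21.3 to 36.0%). Matched on width as well as rank, the shares were 35.0% and 29.9%. The share was 18.8% over all 3465 MAX peaks without MYC that touched a window. Of all 21263 promoter windows of protein-coding genes 7.84% held CACGTG, and of the 16790 windows without an untreated MAX peak 5.16% did. CACGTG reads the same on both strands. When CACGCG and CATGTG, searched on both strands, were allowed as well, 70.7% of the peaks with MYC (62.9 to 77.7%) and 61.5% of the matched peaks (53.4 to 69.2%) held a string, against 28.7% of all windows. The windows with MYC also had more CpG dinucleotides, with a median of 30 per window against 26 in the matched class, 25 over all MAX peaks without MYC and 13 over all promoter windows. Where a peak touched more than 1 window, the highest CpG count was taken. Among peaks with at least 25 CpG by this count, CACGTG stood in a window of 37 of 106 with MYC (34.9%) and 20 of 85 matched peaks (23.5%). Below 25 CpG the shares were 18 of 51 (35.3%) and 24 of 71 (33.8%). A string in the window is a description and not a bound site, and peaks outside these windows were not searched.

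MYC overlap followed the rank of the MAX peak but was not highest at the very top. In the first 100 ranks 29.0% of MAX peaks overlapped MYC (20.4 to 38.9%), in ranks 101 to 200 45.0% did (35.0 to 55.3%), and in ranks 201 to 300 40.0% did (30.3 to 50.3%). The share then fell to 12.0% in ranks 401 to 500, 4.50% in ranks 1001 to 2000 and 0.269% (13 of 4839 peaks) beyond rank 4000. The 500 best MAX peaks held 155 of the 291 members, yet 345 of those 500 had no MYC peak. The 4 best-ranked MAX peaks in the list had none; they lay at Nup85, a nuclear pore subunit gene, Slc35b1, an endoplasmic reticulum nucleotide sugar transporter family gene, Mapkapk5, a stress kinase gene, and Suclg1, a citric acid cycle enzyme gene. Their scores were 1722, 1606, 1486 and 1469, and the members reached from a score of 1422 at rank 5 down to 75 at rank 8378.

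**Figure D1:**
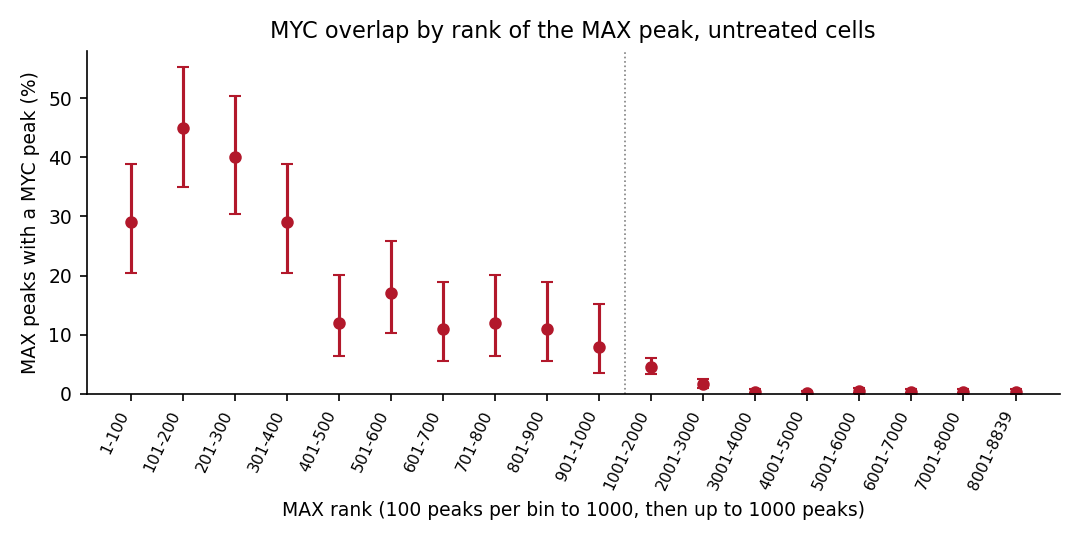
Share of untreated MAX peaks that overlap an untreated MYC peak (vertical axis, %) in bins of MAX rank (horizontal axis; 100 peaks a bin to rank 1000, marked by the dotted line, then up to 1000 peaks a bin). Bars are exact 95% intervals; the share peaks at 45.0% in ranks 101 to 200 and is 4.50% in ranks 1001 to 2000.

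Within the shared sites the MYC peak sat near the middle of the MAX peak. Of the 297 MYC peaks 284 lay wholly inside the MAX peak, all 297 had their centre inside it, and the centres were a median of 58 bp apart (quartiles 21 and 123 bp). The smallest overlap was 86 bp. MYC peaks were narrower, with a median width of 264 bp against 680 bp for the MAX peaks that held them. Only 5 MAX peaks held more than 1 MYC peak, and the most in 1 was 3. The MYC and MAX scores of the overlapping peaks had a Spearman rank correlation of 0.29 over 297 overlaps, some of which share a MAX peak. The order of the lists thus differed: Nsun2, the best-ranked member at a gene start, ranked 190 in the MYC list, and Fyco1, a gene for an autophagosome transport adaptor, ranked 9 in the MYC list with a MAX peak of rank 6792.

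The members with MYC were wider than MAX peaks of the same rank. Their median width was 680 bp (95% interval 654 to 717 bp), that of the matched peaks 552 bp (523 to 586 bp), and that of all MAX peaks without MYC 437 bp. In 198 of the 291 pairs (68.0%, 62.3 to 73.4%) the peak with MYC was the wider. The difference held at gene starts, with medians of 710.5 and 598 bp, and away from them, with 630 and 485 bp. More of them were also built from several summits: 86 of 291 (29.6%) had a joined name ending in a letter, which MACS2 gives to several summits of 1 peak, against 39 of 291 matched peaks (13.4%). A wider MAX peak offers more bases for a MYC peak to overlap, and the part of this in the width difference was not tested.

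Position relative to genes differed little between the classes, but it depended on rank. With MYC, 204 of 291 peaks (70.1%, 64.5 to 75.3%) lay within 1 kb of the start of a protein-coding gene, against 191 of 291 matched peaks (65.6%, 59.9 to 71.1%) and 54.8% of all MAX peaks without MYC. The intervals of the matched classes overlapped. When pairs were matched on width as well as rank the shares were 70.3% and 70.0%, and with the 156 best MYC peaks alone the order turned, at 63.9% with MYC and 69.4% without. Inside genes lay 43 members (14.8%) and 45 matched peaks (15.5%), and farther than 10 kb from a protein-coding gene lay 24 (8.25%) and 22 (7.56%). Starts of 2 or more genes were within reach of 36 members (12.4%) and 32 matched peaks (11.0%).

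In the 200 best MAX ranks the members lay at protein-coding gene starts less often than their neighbours. There, 42 of 74 peaks with MYC (56.8%, 44.7 to 68.2%) were at a gene start, against 106 of 126 without (84.1%, 76.6 to 90.0%). The peaks without MYC had the better ranks here, with 71 in ranks 1 to 100 against 29 with MYC. In ranks 1 to 100 alone the shares were 65.5% with MYC (45.7 to 82.1%) and 91.5% without (82.5 to 96.8%). Starts of other kinds of gene did not count, so the member over Rnu3b3 (MAX rank 164) stands as away from a start. Genes with a tabulated start were counted at that start only. A member at another annotated end, 5′ or 3′, such as that of Pemt (MAX rank 58), thus also stands as away from one. In ranks 201 to 8839 the order was the opposite, at 162 of 217 (74.7%, 68.3 to 80.3%) and 4580 of 8422 (54.4%, 53.3 to 55.4%), although within this range the peaks with MYC had the better ranks. In ranks 201 to 500, where ranks are closer, the shares were 77.8% (67.2 to 86.3%) and 66.7% (60.0 to 72.9%). They were 79.7% and 62.1% in ranks 501 to 1000, and 80.0% and 56.4% in ranks 1001 to 2000. The order did not hold in ranks 2001 to 8839, at 50.0% with MYC (31.9 to 68.1%) and 53.2% without (52.0 to 54.4%). The division at rank 200 was chosen after the values were seen.

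**Figure D2:**
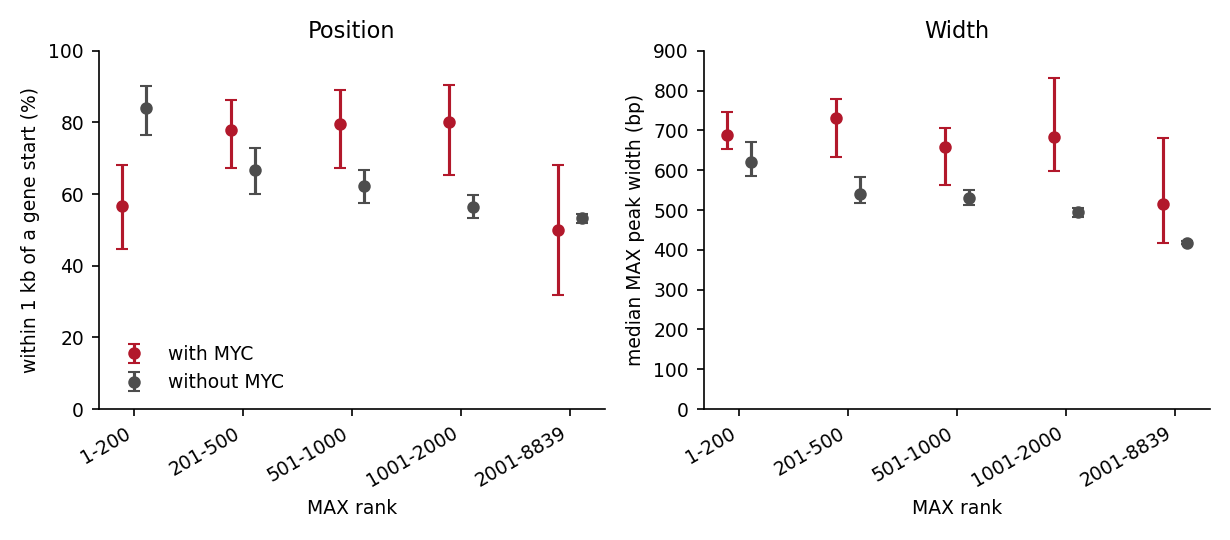
Share of MAX peaks within 1 kb of a protein-coding gene start (left, %) and median width of MAX peaks (right, bp) in 5 ranges of MAX rank, with MYC in red and without MYC in grey; bars are exact 95% intervals. In ranks 1 to 200 fewer peaks with MYC are at a start (56.8% against 84.1%), while their median width is 689.5 bp against 619.5 bp.

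The 32 best-ranked members away from gene starts included 16 inside genes and 11 farther than 10 kb from any protein-coding gene. The best of them, at chr5:142367154-142368050, had MAX rank 5 and MYC rank 1, lay 33447 bp from Foxk1, a forkhead factor gene, and was overlapped by a peak of each of the 8 lists. A pair lay 5424 and 3046 bp from Mef2d, a MEF2 family transcription factor gene, with MAX ranks 21 and 74. Inside Tlr2, the receptor for bacterial lipoproteins, a member had MAX rank 84 and MYC rank 15. Inside Slc1a5, the glutamine transporter gene, the MAX rank was 188, and inside Npm1, the gene of the nucleolar chaperone nucleophosmin, it was 127. Of these 32 members 25 were also overlapped by a MYC peak of RANKL-treated cells, against 1 of the 20 peaks without MYC of ranks 1 to 200 that were not at a start. These genes were chosen with their values in view, and a peak near a gene is not shown to act on it.

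A MYC peak of rank 5 (chr14:115042069-115042652) and a second of rank 249 shared a MAX peak of rank 149 and width 1117 bp that ended 639 bp before Mir17, the first hairpin of the miR-17-92 cluster. The cluster encodes miRNAs that dampen cell death and cell cycle inhibitors and is a known MYC target. Its mature sequences (RefSeq, GRCm38.p6, plus strand of chromosome 14) are shown with the seed, bases 2 to 8, in capitals, because 2 of the seeds recur in it.
mmu-miR-17-5p: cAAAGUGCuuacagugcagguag
mmu-miR-20a-5p: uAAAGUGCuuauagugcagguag
mmu-miR-18a-5p: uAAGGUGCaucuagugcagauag
mmu-miR-19a-3p: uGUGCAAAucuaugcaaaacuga
mmu-miR-19b-3p: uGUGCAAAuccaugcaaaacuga
mmu-miR-92a-3p: uAUUGCACuugucccggccug
The seed AAAGUGC was shared by miR-17-5p and miR-20a-5p and the seed GUGCAAA by miR-19a-3p and miR-19b-3p. The mature miR-17-5p began 1032 bp and the mature miR-92a-3p 1824 bp after the end of the MYC peak of rank 5. That MAX peak was overlapped by the MYC list of RANKL-treated cells, by neither MYC list with I-BET, and by all 3 MAX lists of treated cells.

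Around gene starts with a known strand, the peak centre was somewhat more often downstream at members, and the intervals of the classes overlapped. The centre of the MAX peak was downstream of the nearest start in 73 of 168 members (43.5%, 35.8 to 51.3%) and in 51 of 168 matched peaks (30.4%, 23.5 to 37.9%). The median centre was 36 bp before the start with MYC and 50 bp before it without, and the 95% intervals of these medians overlapped. The upper quartile was 97 bp after the start with MYC and 19.2 bp after it in the matched class. Centres of the MYC peaks themselves were downstream in 76 of 171 cases (44.4%), with a median 25 bp before the start.

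**Figure D3:**
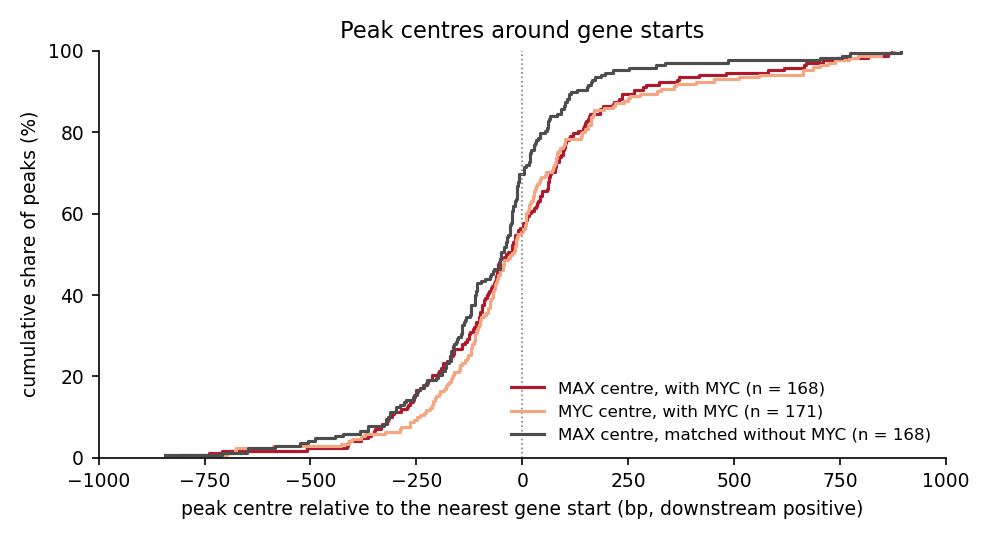
Cumulative share of peaks (vertical axis, %) by distance of the peak centre from the nearest protein-coding gene start of known strand (horizontal axis, bp, downstream positive). Red is the MAX centre and orange the MYC centre at members with MYC, grey the MAX centre at rank-matched peaks without MYC; 43.5% of the red and 30.4% of the grey centres lie downstream of the start.

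By gene function, genes that make ribosomes were the listed groups found most often at members. A peak of the 291 lay at the start of 239 genes, 4.55% of the 5258 genes with any MAX peak at a start, and the rank-matched peaks without MYC lay at 224 others, so that 51.6% of the 463 genes of both classes had MYC. Of 29 gene lists, ribosome biogenesis and the cytosolic ribosomal proteins had the most genes with MYC. They were also the longest lists, with 80 and 81 matched genes, so these counts depend in part on list length. Ribosome biogenesis had 16 of its 71 MAX-bound genes with MYC (22.5%, 13.5 to 34.0%), and 5 more at matched peaks without MYC, so that 16 of 21 (76.2%, 52.8 to 91.8%) had MYC. The cytosolic ribosomal proteins had 11 of 72 (15.3%, 7.88 to 25.7%), and 2 at matched peaks, so that 11 of 13 (84.6%, 54.6 to 98.1%) had MYC. Counted over peaks, a gene of either list stood at 27 of the 291 members (9.28%, 6.20 to 13.2%), 7 of the 291 matched peaks (2.41%, 0.972 to 4.89%) and 1.44% of all MAX peaks without MYC. When pairs were matched on width as well as rank, the shares were 9.31% (6.23 to 13.3%) and 4.14% (2.16 to 7.12%), and the intervals overlapped. The median best MAX rank was 1281 for MAX-bound ribosome biogenesis genes and 2513.5 for the ribosomal proteins.

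The ribosome biogenesis genes with MYC covered the steps from transcription of ribosomal RNA to late assembly. Ncl, the gene of the abundant nucleolar protein nucleolin, was at the MAX peak of rank 43 (chr1) and MYC rank 3. Polr1b, a large subunit gene of RNA polymerase I, had MAX rank 740 and MYC rank 268. Nop58 (MAX rank 210) and Nop56 (1018) encode core proteins of the box C/D particles that guide RNA methylation, and Gar1 (114) and Dkc1 (1320) encode proteins of the H/ACA particles that guide pseudouridylation. Nolc1 (MAX rank 179) encodes a nucleolar chaperone of these particles. Bop1 (MAX rank 315, MYC rank 76) encodes a scaffold of large subunit maturation, and Riok2 (MAX rank 49, MYC rank 75) a kinase of small subunit maturation. Gnl3, the nucleostemin gene, had MAX rank 879, and Nol8, Rrp1b, Mybbp1a, Ppan, Gtpbp4 and Noc2l complete the 16, with MAX ranks of 73 to 847. Npm1 is also on this list, but its member (MAX rank 127, MYC rank 113) lay inside the gene and is not counted. Pes1, whose protein works in 1 complex with Bop1, had a better MAX rank, 40, and no listed MYC peak. Pno1 (MAX rank 14), Nol11 (281) and Nat10 (332) also had MAX without MYC, and of these Nat10 was overlapped by the RANKL MYC list.

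The 11 ribosomal protein genes with MYC included Rpl10a (MAX rank 347, MYC rank 50), Rpl13a, Rpl5, Rpl32, Rps7, Rplp2, Rpl38, Rpl12 and Rpl13. The MAX ranks of the 11 ran from 347 to 5610 and the MYC ranks from 50 to 231. Rps27a (MAX rank 15), Rps12 (54), Rpl35a (99) and Rpl21 (116) had far stronger MAX peaks and no listed MYC peak.

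Other lists had smaller numbers and wide intervals. As shares of MAX-bound genes, glycolysis (13.0%), mitochondrial biogenesis (12.8%) and nuclear transport (12.5%) were near the ribosomal proteins (15.3%), and their intervals overlapped. Translation factors had 5 of 43 MAX-bound genes with MYC (Eif4a2, Eif3a, Eif3b, Eif5a and Eif1a) and 2 at matched peaks. Glycolysis and the pentose phosphate pathway had 3 of 23 (Ldha at MAX rank 126, Hk2 at 353 and Eno3 at 647) and 0 at matched peaks. Of the genes for nucleotide, one-carbon and polyamine synthesis, MYC stood at 4 of 35 (the spermidine synthase gene Srm, Nme1, Atic and Mat2a) and 2 at matched peaks. Nuclear transport had 4 of 32 (Ran at MAX rank 59, Xpot, Nup188 and Nup210) and 2 at matched peaks. Splicing and RNA-binding factors had 5 of 43 (Pcbp1, Hnrnpu, Srsf3, Srsf2 and Prcc) and 4 at matched peaks. Mitochondrial biogenesis had 5 of 39 and 5 at matched peaks, with Pprc1, a coactivator gene of the PGC-1 family, at MAX rank 42, Mtg1 at 166, Timm21 at 1682, and the divergent chaperonin genes Hspd1 and Hspe1 sharing the MAX peak of rank 233. The tRNA synthetases had 2 of 24, Vars (MAX rank 32) and Ears2 (36), and 1 at a matched peak. The chaperonin and HSP90 list had 2 of 20 (Ppia and Cct3), and RNA polymerase III 1 of 18 (Polr3e).

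Among lists of cell identity and signalling, macrophage identity alone had a gene with MYC at its start. The counts of every list take peaks at gene starts only, so the members inside Tlr2, Cdk8 and Npm1 are not in them. No MYC peak stood at the 28 MAX-bound lysosome genes (95% interval up to 12.3%), the 14 circadian clock genes (up to 23.2%), the 16 NF-kB and inflammatory genes (up to 20.6%), the 9 interferon genes or the 9 osteoclast genes (each up to 33.6%). Each of these intervals includes the 4.55% of all MAX-bound genes, so the counts cannot be told apart from it. Macrophage identity had 1 of 12, Klf4, a zinc finger factor of monocytes, at MAX rank 159, while Spi1, which encodes the lineage factor PU.1, had MAX rank 690 and no MYC peak. Cell cycle and replication had 1 of 31, the cyclin D1 gene Ccnd1 (MAX rank 194, MYC rank 18), against 2 at matched peaks, Cdk4 and Ccne2. Of the proteasome genes 1 of 17 had MYC (Psme3) and 3 stood at matched peaks. The respiratory chain had 1 of 20 (Cox5a) and the BET protein and elongation list 1 of 18 (Cdk7). Neuronal, lymphocyte, and neutrophil and dendritic cell markers had no MAX peak at a gene start. The hepatocyte and the fibroblast and osteoblast lists had 1 gene each with such a peak. The MGA-linked germ cell and MiT/TFE lists had 2 and 3, and none of these peaks had MYC.

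**Figure D4:**
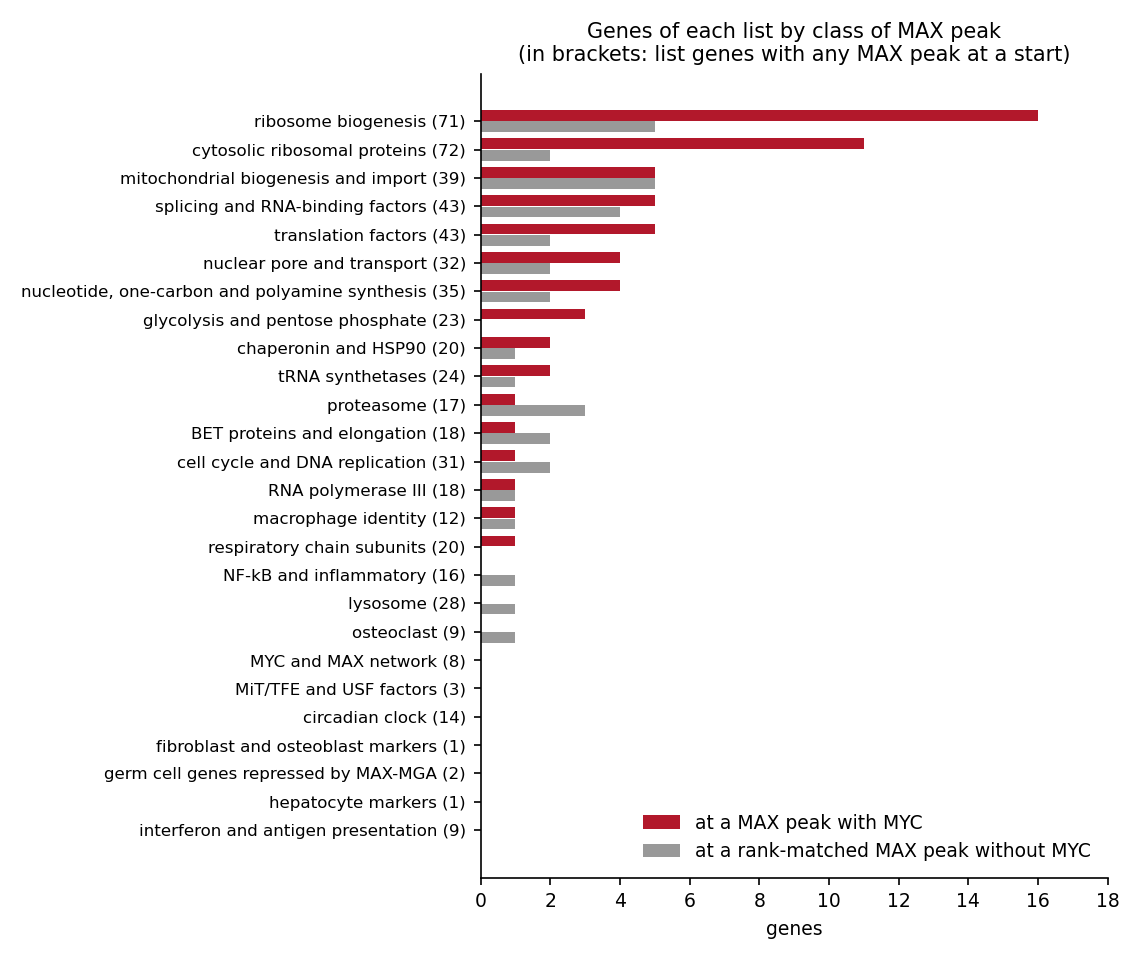
Number of genes of each list (horizontal axis) at a MAX peak with MYC (red) and at a rank-matched MAX peak without MYC (grey); the number in brackets counts the list's genes with any MAX peak at a start. Ribosome biogenesis (16 against 5) and cytosolic ribosomal proteins (11 against 2) have the longest red bars.

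Among the 13 network genes, 8 had a MAX peak at a start and 0 of these a MYC peak. The interval reaches 36.9% and includes the 4.55% of all MAX-bound genes. Their MAX ranks were 367 for Mlxip, 713 for Max itself, 1059 for the repressor gene Mnt, 1577 for Mxd3, 2040 for Mxi1, 2093 for Mxd4, 3468 for Mga and 7784 for Mxd1. Myc, Mycn, Mycl, Mlx and Mlxipl had no MAX peak within 1 kb of a start.

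At the weak end of the MAX list, 32 members had MAX ranks over 2000. At gene starts the 10 weakest lay at Ogg1, Sfxn1, Dpy30, Eif1a with Tmed7, Prkag2, Paxbp1, Cdca3 with Usp5, Rpl13, Fyco1 and Prcc, with MAX ranks from 2437 to 8378. At the strong end the 10 best lay at Nsun2 with Srd5a1, Ptprs, Apex1 with Osgep, Vars, Ears2 with Ubfd1, G6pc3, Pprc1, Ncl, Cmc1 and Riok2, with MAX ranks from 11 to 49. Among the 10 best MYC peaks, rank 6 lay inside Zc3h7a at a MAX peak of rank 6966 and rank 10 at Rrp1b. Rank 4 lay at an annotated end of Pemt other than its tabulated start. Strand was not used for such ends, so this one may be 5′ or 3′. Ranks 2 and 8 lay over Rn18s-rs5, a ribosomal RNA repeat unit on chromosome 17, with widths of 4381 and 1364 bp. Reads of repeated ribosomal RNA genes can pile up on such a copy, and this was not tested.

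Many of the same places carried a MYC peak again after RANKL, and few after I-BET. A peak of the RANKL MYC list overlapped 144 of the 291 members (49.5%, 43.6 to 55.4%) and 26 of the 291 matched peaks (8.93%, 5.92 to 12.8%), against 3.19% of all 8839 MAX peaks. From the other side, 144 of the 299 RANKL MYC peaks (48.2%) lay at members. Members found again had better MYC ranks, with a median of 109.5 against 203 for those not found again, and better MAX ranks, with 227.5 against 730. Of the members with MYC ranks 1 to 104, 70 of 98 were found again (71.4%), of those with ranks 105 to 208 45 of 95 (47.4%), and of those with ranks 209 to 312 29 of 98 (29.6%). The matched peaks have no listed MYC peak in untreated cells, which does not show that MYC was absent there. Those overlapped by the RANKL MYC list included gene starts of Dazap1 (MAX rank 68), Timm9 (121), Mrpl23 (125), Utp3 (254), Nat10 (332), Wdr43 (439) and the myeloid factor gene Cebpa (711).

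The I-BET MYC list, which holds 136 peaks, overlapped 25 members (8.59%, 5.64 to 12.4%) and 0 matched peaks (95% interval up to 1.26%). Of its 136 peaks 32 lay at members (23.5%) and 36 at any untreated MAX peak. The 25 members had a median MYC rank of 62, and 10 of them (40.0%, 21.1 to 61.3%) were at a gene start, against 194 of the other 266 (72.9%, 67.2 to 78.2%). Those at a gene start included Ncl, G6pc3, Hspd1 with Hspe1, Rpl10a, Eno3, Mtg1, Ppia and Ears2. The larger part lay away from gene starts and included both Rn18s-rs5 peaks and the site nearest to Foxk1. Sites inside Zc3h7a, Cmss1 and Peak1 were also among them, with MAX ranks of 6966, 7294 and 8133. Members beyond MAX rank 2000 were in this list in 7 of 32 cases (21.9%, 9.28 to 40.0%) and members of better rank in 18 of 259 (6.95%, 4.17 to 10.8%). Of these 7, only the site nearest to Axin2 was overlapped by the RANKL MAX list, and none by the MAX list of both agents. Input was not used here, so whether background reads raised the peaks at such sites was not tested. The list of cells given both agents holds 11 peaks, of which 9 lay at members, at Ncl, Nop58, Noc2l with Klhl17, Gtf2ird2, Angptl6, Pemt and 3 sites whose nearest genes are Foxk1, Myo1g and Lbp. A shorter list can overlap fewer members, and list length and treatment cannot be told apart here.

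MAX itself was listed again at nearly all of these sites whether or not MYC was there. The MAX lists overlapped 97.9% of members and 98.6% of matched peaks after RANKL, 100% of both after I-BET, and 96.9% (94.2 to 98.6%) and 94.8% (91.6 to 97.1%) after both agents. Over all MAX peaks without MYC, which are mostly of lower rank, the shares were 81.5%, 97.4% and 57.6%. The MAX lists hold 10889, 36785 and 6307 peaks in that order.

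**Figure D5:**
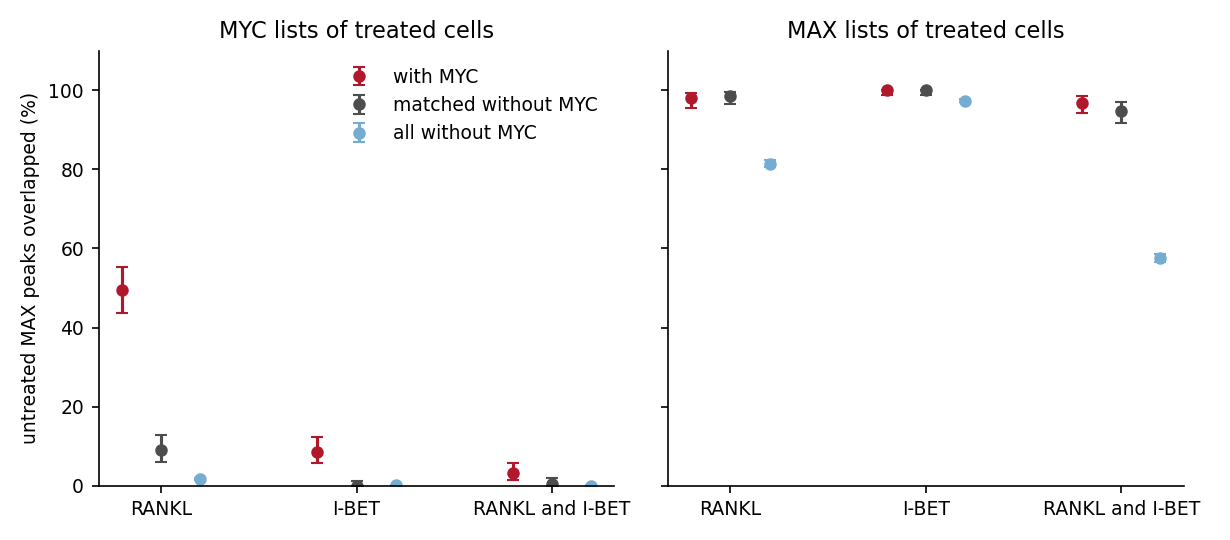
Share of untreated MAX peaks (vertical axis, %) that overlap a peak of the MYC lists (left) or MAX lists (right) of cells given RANKL, I-BET or both, for members with MYC (red), rank-matched peaks without MYC (grey) and all MAX peaks without MYC (blue); bars are exact 95% intervals. In the RANKL MYC list the red share is 49.5% and the grey 8.93%, while the MAX shares of the red and grey classes lie between 94.8% and 100%.

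The 15 MYC peaks outside MAX were 4.81% of the MYC list and were not confined to its weak end. Their MYC ranks ran from 7 to 311 and their median width was 228 bp, against 264 bp for those inside MAX. The best was at the start of Nudt13, a nucleotide hydrolase family gene (chr14:20294475-20294742), with a score of 223; it recurred in the RANKL MYC list and was in none of the 4 MAX lists. The next lay inside Gm52481 on chromosome Y (rank 29), at the start of 9430015G10Rik (49), inside the mitochondrial leucyl-tRNA synthetase gene Lars2 (61), and 281910 bp from Pex2 on chromosome 3 (92). Those of ranks 118 and 165 lay between Uqcr10 and Zmat5 and at the start of the dynein gene Dync1i2. Ranks 197, 202 and 232 lay inside Camk1d, inside Il31ra and at the starts of Hmbox1 and Ints9. Ranks 258 and 311 lay over the small nuclear RNA genes Gm25099 and Gm23444, of which the nearest protein-coding genes were Kif2c and Slfn14. Rank 269 lay inside Arhgap21, 368 bp from a MAX peak, and rank 295, nearest to Csf2ra on chromosome 19, 850 bp from 1.

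In all, 5 of the 15 lay at a protein-coding gene start and 2 within 1 kb of an untreated MAX peak, and the median distance to a MAX peak was 53153 bp. The I-BET MAX list, the longest, overlapped 13 of them, the RANKL MAX list 4 and the MAX list of both agents 1. The RANKL MYC list and the I-BET MYC list each overlapped 4, and 8 were in no other MYC list.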

How the data were processed

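MYC and MAX ChIP-seq libraries of RAW264.7 cells (1 per antibody and condition) were compared through their deposited peak lists. Input libraries have no list and were not used here. Per the labels' protocols, cells were fixed with 1% formaldehyde for 15 min and read single-end at 50 bp. FastQC, Bowtie2 2.3.4.1, MACS2 2.1.1.20160309 and the build mm10 (GRCm38) are named in the submitters' processing notes; for thresholds and the use of input, these sources give nothing. Each peak joins calls of 3 call sets of unstated nature, and column 5 is the authors' score, used only to rank peaks within a list. A low score or an unlisted peak can reflect depth, which is unknown here.

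Members and gene lists were chosen with earlier results of these data known. Peaks overlap when they share 1 bp. Each MAX peak with MYC, best rank first, took the nearest-ranked free MAX peak without MYC. Peaks were assigned to a gene within 1 kb of its start for the 17492 of 21887 protein-coding genes with a RefSeq promoter entry (79.9%), and of either end for the other 4395, so some peaks at a start may be at a 3′ end. Of 1120 gene names in the lists 1115 matched. Named genes are those at the 10 best and 10 weakest members and the 10 best MAX peaks without MYC at gene starts, the 10 best MYC peaks, all MYC peaks outside MAX, and list genes with MYC plus up to 4 best-ranked without; others were named after their values were seen. A few items that the rule names are not reported here. Intervals are exact (Clopper-Pearson for shares, order statistics for medians) and cover counting error only. Alternatives covered the matching, the overlap rule, the 156 best MYC peaks, the gene window and the motif; 6 more were added after the data were seen. The code used scipy 1.17.1, pandas 2.3.3 and numpy 2.4.6 under Python 3.11.15, with figures from matplotlib 3.10.9, and was tested on simulated data.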

Additional observations from a re-analysis of the deposited data

How the results depend on the processing

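The gene-start share, width, ribosome gene share, CACGTG share, presence in the RANKL MYC list and in the MAX list of both agents, overlap by rank and number of MYC peaks outside MAX were recomputed with 1 choice changed at a time. The other values were not recomputed. Asking for the MYC centre inside the MAX peak, or for peaks of at least 100 bp, changed none of these values, and settings of the matching alone leave the members themselves as they are. No paired analysis was possible because each antibody and condition has 1 library. Without rank matching, the class without MYC gave 54.8% at a gene start, a median width of 437 bp, CACGTG in 18.8%, the RANKL MYC list in 1.61% and the MAX list of both agents in 57.6%. With the 156 best MYC peaks, members were at a gene start in 63.9% and in the RANKL MYC list in 66.0%, and 7 MYC peaks lay outside MAX. A 2.5 kb window put 74.6% of members and 71.1% of matched peaks at a gene start. Counting both ends of every gene put 63.9% of members and 63.2% of matched peaks there. Using only tabulated starts gave 60.1% of members and 58.8% of matched peaks, and counting genes of any kind 77.7% and 70.8%. Gene-start peaks matched among themselves had a median width of 597 bp without MYC. The 3 E-box strings together gave 70.7% and 61.5%. Ranked by width, 10.7% of peaks 101 to 1000 and 2.19% of later peaks had MYC. Against MAX lists of any condition, 1 MYC peak lay outside. Settings that changed nothing included, members exceeded their comparison class in all settings run for width (9), ribosome genes (11), CACGTG (10) and the RANKL MYC list (9). For gene starts they did so in 13 of 14, by as little as 0.345 percentage points when pairs were matched on rank and width. For the MAX list of both agents they did so in 8 of 9, and the classes were equal in the other. The lists hold peaks past unstated thresholds, so weak MYC binding at MAX sites was not measurable here.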

Other observations

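Several small RNA genes lay under members with MYC. The 4 genes of the U3b cluster, which encode the U3 small nucleolar RNA needed for the first cuts of ribosomal RNA, each sat under a MAX peak with MYC on chromosome 11: Rnu3b3 (chr11:87448627-87448841) at MAX rank 164 and MYC rank 55, Rnu3b1 at 2022 and 133, Rnu3b4 at 2625 and 174, and Rnu3b2 at 3599 and 32. These are near-identical copies read at 50 bp, so reads could be shared among them and the value of each copy is uncertain. Genes annotated as small nuclear RNA lay under 7 of the 291 members (2.41%, 95% interval 0.972 to 4.89%), 0 of the 291 matched peaks (up to 1.26%) and 0.211% of all MAX peaks without MYC. The 4 U3b copies are among the 7, so these are not independent counts and the interval is too narrow. The 7 also included Rnu5g, of the U5 spliceosomal RNA, at MAX rank 2006 and MYC rank 69. Small nucleolar RNA genes lay under 2 members, against 0 in the matched class. For tRNA genes the count was 1 member, n-TLaag4 beside Polr3e, for miRNA genes 1 member and 3 matched peaks, and for long non-coding RNA genes 45 of 291 in each class.

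Pseudogenes lay under 4 members and 2 matched peaks. Those under members were Gm10060 on chromosome 8, Mid1-ps1 on chromosome Y, and Rn18s-rs5 under 2 peaks of MAX rank 339 and 1862, and all 4 peaks were overlapped by the I-BET MYC list. Beside Mirlet7i, a let-7 gene, the MYC peak of rank 262 lay inside a MAX peak 579 bp from the hairpin.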
